A study of Mus musculus with 8 samples.

Results

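The genes described here carry a cell through G2 and mitosis, the division in which the copied chromosomes are condensed, attached to the spindle and pulled apart. They were taken by name: every non-control spot of the array whose gene name is one of 42 listed genes belongs to the set, out of 31660 gene names on the array. These 42 genes have 59 probes of 60 bases. Of the 42 genes, 40 could be tested.

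RNA came from erythroid progenitors of C57BL/6 mouse fetal liver at E14.5 of gestation. The cells had been depleted magnetically of lineage-positive, Sca-1, CD16/32, CD41 and CD34 positive cells, and the c-kit positive cells with the lowest 10% of CD71 were then sorted. They were infected and kept in culture for 3 days. There were 4 groups of 2 arrays: control virus without DEX (dexamethasone, a synthetic glucocorticoid), control virus with DEX, and virus encoding shRNA1 or shRNA2 against an RNA-binding protein, both with DEX. No group received an shRNA without DEX, so the shRNA groups can be compared only with the control virus under DEX. The labels give no dose of DEX, do not say whether infected cells were separated from uninfected ones, and do not say whether the 2 arrays of a group came from separate embryos or cultures, so p-values measure the spread between arrays, which may be technical. The first array of each group was on one slide and the second on the other, so the replicate number is also the slide number.

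Mitotic entry is driven by cyclin B bound to the kinase Cdk1, which stays inhibited by phosphate groups until the Cdc25 phosphatases remove them. The spindle checkpoint then holds the anaphase promoting complex back until every kinetochore is attached, after which that complex marks securin and the cyclins for destruction. Early erythroid progenitors are known as cells that can keep dividing without maturing when glucocorticoids are present, and most mitotic transcripts accumulate only in cells that are in late S phase, G2 or M, so in a mixed population their level moves with the share of cells in those phases. In RNA from many cells, fewer cells in G2 and M cannot be told apart from less mitotic RNA per cell.

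The promoters of many mitotic genes share a short layout known from other work: boxes with the letters CCAAT, which NF-Y binds, upstream of a cell cycle homology region with the letters TTTGAA or, less often, TTTAAA, to which the DREAM and MYB-MuvB complexes bind. The 120 bases before the annotated start are shown for 6 members that hold both kinds of letters, in whatever order, and for Cdc25b and Pttg1, which lack the homology region letters. They come from RefSeq's GRCm38.p6 annotation, read 5′ to 3′ on the strand of the gene, and capitals mark matches to CCAAT, to TTTGAA or to TTTAAA on either strand (CCAAT then reads ATTGG on the printed strand, the second motif reads TTCAAA there, and the last reads the same on both strands). The stretches are at chr13:100786487-100786606 (minus strand) for Ccnb1, chr10:69352913-69353032 (minus) for Cdk1, chr7:122159315-122159434 (plus) for Plk1, chr4:118437344-118437463 (minus) for Cdc20, chr11:99024190-99024309 (minus) for Top2a, chr2:164769809-164769928 (plus) for Ube2c, chr2:131186828-131186947 (plus) for Cdc25b and chr11:43425982-43426101 (minus) for Pttg1.
Ccnb1: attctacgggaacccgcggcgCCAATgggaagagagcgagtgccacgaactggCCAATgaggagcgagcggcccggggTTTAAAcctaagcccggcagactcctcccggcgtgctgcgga
Cdk1: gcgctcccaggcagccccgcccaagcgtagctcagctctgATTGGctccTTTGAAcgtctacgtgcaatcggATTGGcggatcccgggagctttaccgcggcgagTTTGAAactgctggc
Plk1: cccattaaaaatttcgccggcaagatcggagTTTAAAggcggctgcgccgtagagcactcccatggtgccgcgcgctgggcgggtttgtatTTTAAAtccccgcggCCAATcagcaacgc
Cdc20: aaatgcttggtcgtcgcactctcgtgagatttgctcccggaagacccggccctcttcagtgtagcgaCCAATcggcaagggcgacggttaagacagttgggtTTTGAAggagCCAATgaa
Top2a: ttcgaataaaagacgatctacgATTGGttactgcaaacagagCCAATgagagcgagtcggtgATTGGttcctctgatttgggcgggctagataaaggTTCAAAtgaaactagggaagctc
Ube2c: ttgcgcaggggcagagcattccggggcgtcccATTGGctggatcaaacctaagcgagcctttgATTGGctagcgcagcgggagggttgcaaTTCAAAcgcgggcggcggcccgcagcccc
Cdc25b: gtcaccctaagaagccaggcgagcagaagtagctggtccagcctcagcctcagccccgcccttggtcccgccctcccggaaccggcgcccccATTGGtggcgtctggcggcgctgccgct
Pttg1: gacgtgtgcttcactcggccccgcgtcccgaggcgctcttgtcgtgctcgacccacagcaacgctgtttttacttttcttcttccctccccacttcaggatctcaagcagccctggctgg

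In Ccnb1, TTTAAA begins at -42 from the start and 2 CCAAT boxes lie upstream of it. Cdk1 has TTTGAA at -71 and -15. In Plk1 TTTAAA at -89 and -29 lies upstream of the only CCAAT box, at -14. A TTTGAA lies downstream of that box, at 31 after the start and outside the printed stretch. Cdc20 has a CCAAT box at -53, TTTGAA at -18 and a further CCAAT box at -8. Cdc25b has 1 CCAAT box and no homology region letters, and Pttg1 has neither. RefSeq's table held windows, running from 250 bases before the start to 50 after it, for 35 of the 42 genes. TTTGAA was found in 26 of these 35 genes, 74.3%, against 20.2% of the 27025 genes of the table. TTTAAA was found in 9 genes (25.7%, against 14.9% of all genes) and CCAAT in 27 (77.1%, against 41.1%). Counted by window, with several starts of a gene kept apart, TTTGAA was in 76.3% of member windows and 17.9% of all windows of this length, TTTAAA in 23.7% and 13.2%, and CCAAT in 78.9% and 37.4%. CCAAT together with either homology region letters was in 25 of the 35 member genes (71.4%) and in 12.2% of all genes. The windows of Pttg1, Nusap1, Mad2l1 and Nuf2 held none of the letters, and that of Bub1 held CCAAT only. Lack of the homology region letters did not go with 1 pattern of values: the levels of Bub1, Mad2l1, Nuf2 and Nusap1 followed the order of arrays that most members had on slide 1, and those of Cdc25b and Pttg1 did not. A match of letters is a description of the sequence and does not show that a factor binds there.

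**Figure D1:**
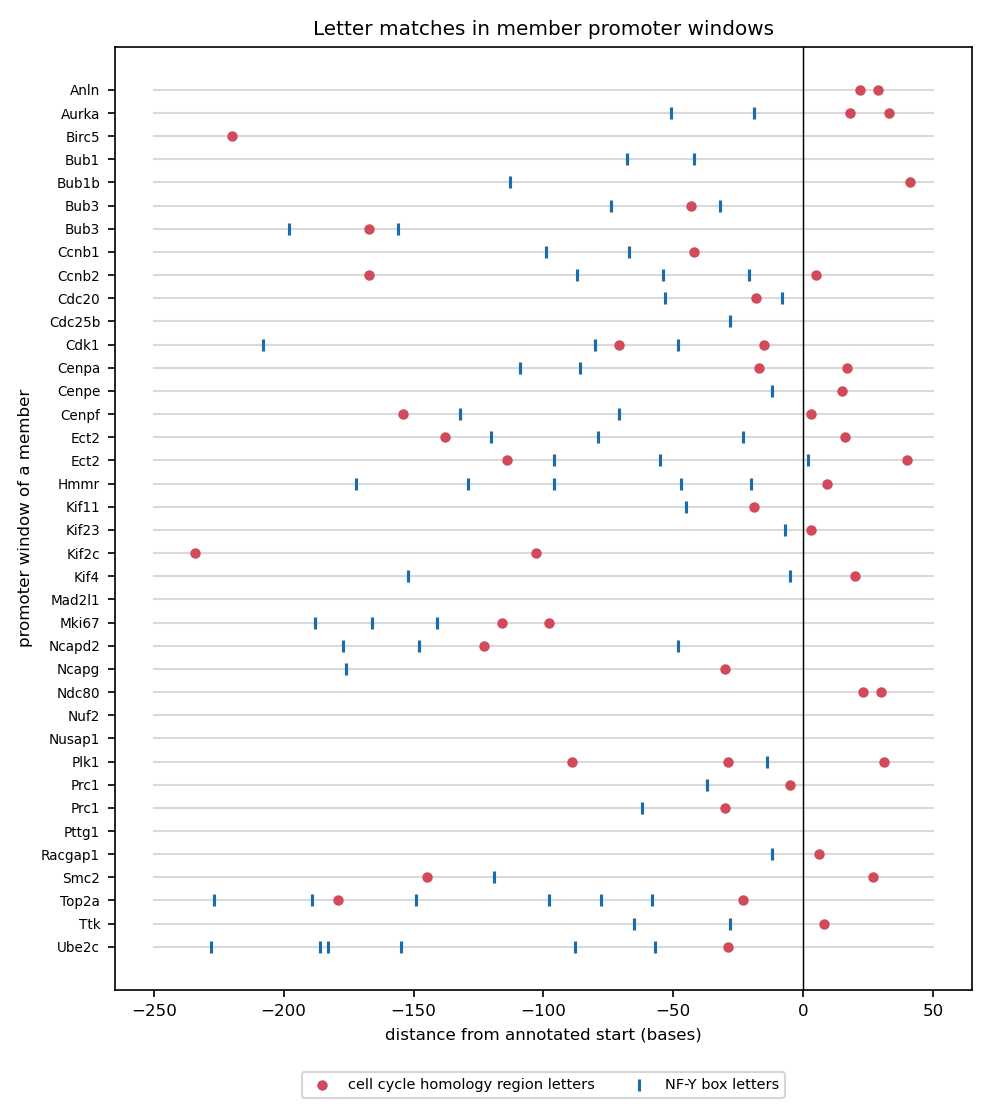
Positions of letter matches in the 38 promoter windows of 35 member genes, with the distance from the annotated start in bases on the x axis and 1 line per window. Dots mark the homology region letters and ticks mark the CCAAT box, on either strand; 29 of the 35 genes have at least 1 dot, and Mad2l1, Nuf2, Nusap1 and Pttg1 have no mark.

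A level below is the log2 processed signal of a probe minus the 75th percentile of its own array, so that 0 is the 75th percentile of the probes on that array; levels of different probes are not comparable with each other. A gene's values come from 1 probe of that gene, and a difference is a difference of mean levels on the log2 scale. Array brightness differed by slide: the 75th percentile of signal was 476.2 to 1003 on slide 1, with both shRNA arrays dimmest, and 1439 to 2061 on slide 2. Between 58.8% and 62.4% of probes were well above background on each array. The erythroid markers (14 of 14 well above background on every array) had mean levels of 4.13 to 4.96. The labels do not name the targeted protein; from what is known of the study it is Zfp36l2, a zinc finger protein that binds AU-rich RNA. Zfp36l2 lay at 3.49 and 3.85 without DEX, at 5.55 and 5.42 with DEX, at 4.09 and 3.92 with shRNA1 and at 4.12 and 3.70 with shRNA2, below both DEX control arrays on all 4 shRNA arrays.

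Of the members not tested, Aurkb, the kinase of the chromosomal passenger complex, was well above background on 1 array only, with levels between -8.83 and -6.14. Ccnb2, a second cyclin B, had an outlier spot on the second array without DEX; its other levels were 4.77 without DEX, 4.13 and 4.27 with DEX, 3.83 and 4.65 with shRNA1 and 3.18 and 4.44 with shRNA2. Cenpf was well above background on 6 of the 8 arrays, and the other 39 tested members on all 8.

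No member passed limma's test in any comparison, with or without slide as a block, and 1 feature ran through nearly all of them. On slide 1 the members stepped down from array to array, from control without DEX to control with DEX, shRNA1 and shRNA2, while on slide 2 they lay almost level. The strict order of these 4 arrays held for 32 of 40 members on slide 1, 80% against 9.23% of all 19130 genes tested. On slide 2 it held for 4 of 40, 10% against 4.47% of all genes. The median spread between the highest and lowest of the 4 arrays was 1.24 for members on slide 1 (0.92 for all genes) and 0.25 on slide 2 (0.47 for all genes). Since this order was picked after its values were seen, these shares describe the arrays and carry no test.

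**Figure D2:**
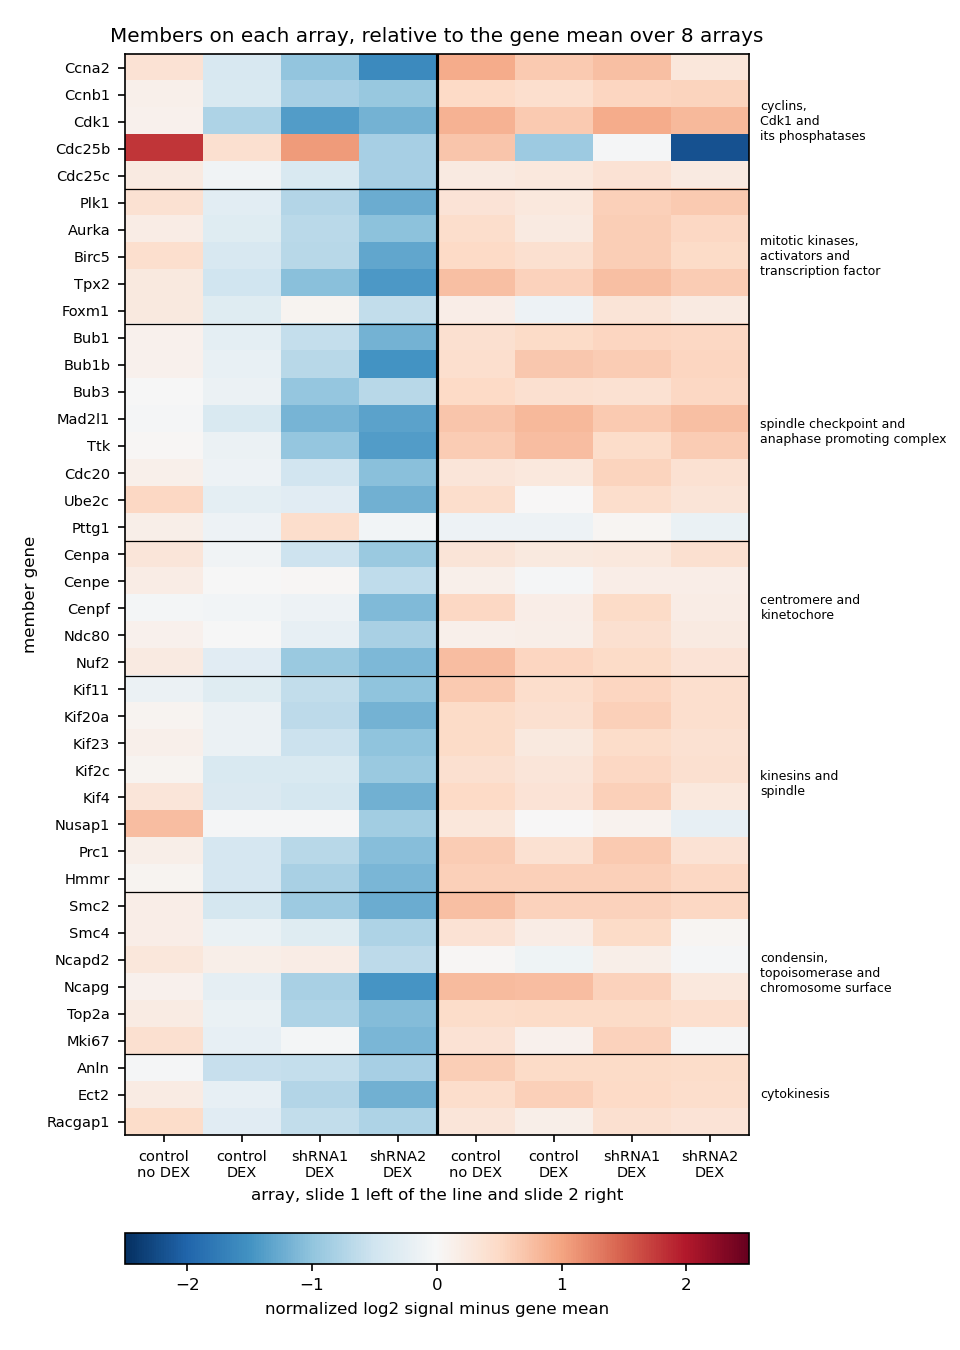
Level of the 40 tested members on each of the 8 arrays, as the log2 signal minus the gene's mean over the arrays (colour scale in log2 units), with members in rows by role and slide 1 left of the line. Slide 1 darkens to blue from left to right in most rows, slide 2 is evenly pale red, and Cdc25b alternates on both slides.

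Cyclins, Cdk1 and its phosphatases stand first, since they start mitosis. Ccna2, the cyclin of S phase and G2, lay at 4.10 and 4.67 on the arrays of slides 1 and 2 without DEX, 3.35 and 4.39 with DEX, 2.76 and 4.49 with shRNA1 and 2.15 and 4.02 with shRNA2. Ccnb1, the cyclin B that activates Cdk1, lay at 3.59 and 3.96 without DEX, 3.07 and 3.88 with DEX, 2.62 and 4.0 with shRNA1 and 2.5 and 4.01 with shRNA2. Both cyclins were lowest on the slide 1 array of shRNA2, and on slide 2 Ccnb1 stayed within 0.12 over the 4 arrays. The other probes of Ccnb1 differed from the DEX control by 0.13 (0.07 and 0.19 on the slides) and by -0.36 with shRNA1. Cdk1, the kinase of mitotic entry, lay at -0.23 and 0.53 without DEX, -1.12 and 0.31 with DEX, -1.74 and 0.59 with shRNA1 and -1.53 and 0.48 with shRNA2. Its other probes did not always follow: under shRNA1 this probe differed from the DEX control by -0.17, and 1 other probe that also passed the filter by 0.44. Cdc25c, a phosphatase that activates Cdk1 at mitotic entry, had a mean difference of -0.14 with DEX, -0.09 with shRNA1 and -0.38 with shRNA2.

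Cdc25b, the phosphatase that starts the activation of cyclin B and Cdk1 in G2, did not follow the others. Its level was 3.93 and 2.84 without DEX, 2.55 and 1.24 with DEX, 3.22 and 2.12 with shRNA1, and 1.31 and -0.03 with shRNA2. On each slide the order was therefore control without DEX, shRNA1, control with DEX, shRNA2, and slide 2 lay below slide 1 in every group, by 1.08 to 1.33, where the median member was higher on slide 2 in every group. With DEX it was lower by 1.38 on slide 1 and 1.60 on slide 2, and the groups did not overlap. The mean difference was -1.49 (SE 0.74, n = 2 arrays a group), a ratio of 0.356. It did not pass limma's moderated test (Benjamini-Hochberg adjusted p = 1 over all genes), nor the fit with slide as a block (SE 0.19, limma adjusted p = 0.0656); over the 28 fits tried the adjusted p ranged from 0.0474 to 1, the lowest in the block fit of the authors' own values.

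Against the DEX control, Cdc25b differed by 0.68 and 0.88 on the 2 slides with shRNA1 (mean 0.78) and by -1.24 and -1.27 with shRNA2 (mean -1.25). The 2 hairpins, which are directed at the same gene, thus had values on opposite sides. Their direct difference, shRNA1 minus shRNA2, was 1.92 and 2.14, with a mean of 2.03 (SE 0.74), a ratio of 4.09, and the arrays did not overlap. That difference exceeded the spread between slides, and missed the threshold after adjustment in limma (adjusted p = 1, or 0.131 with slide as a block; 0.131 to 1 over the 28 fits). Under scaling by each array's median the shRNA1 value was 0.38. With 1 array left out at a time and no block, which sets arrays of different slides against each other, the DEX value of Cdc25b ran from -2.14 to -0.84, both reached by leaving out an array of the DEX control. The shRNA1 value then ran from 0.12 to 1.43, both again reached by leaving out an array of the DEX control, the shRNA2 value from -1.92 to -0.59, reached without its slide 1 and slide 2 arrays, and shRNA1 minus shRNA2 from 1.37 to 2.70, reached without the slide 2 and slide 1 arrays of shRNA2. With slide as a block these ranges were -1.57 to -1.41, 0.71 to 0.84, -1.34 to -1.17 and 1.95 to 2.11. Cdc25b has 1 probe on the array, at chr2:131023911-131023970 on the plus strand of mm9 by the array's annotation, and all its values rest on that probe.

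**Figure D3:**
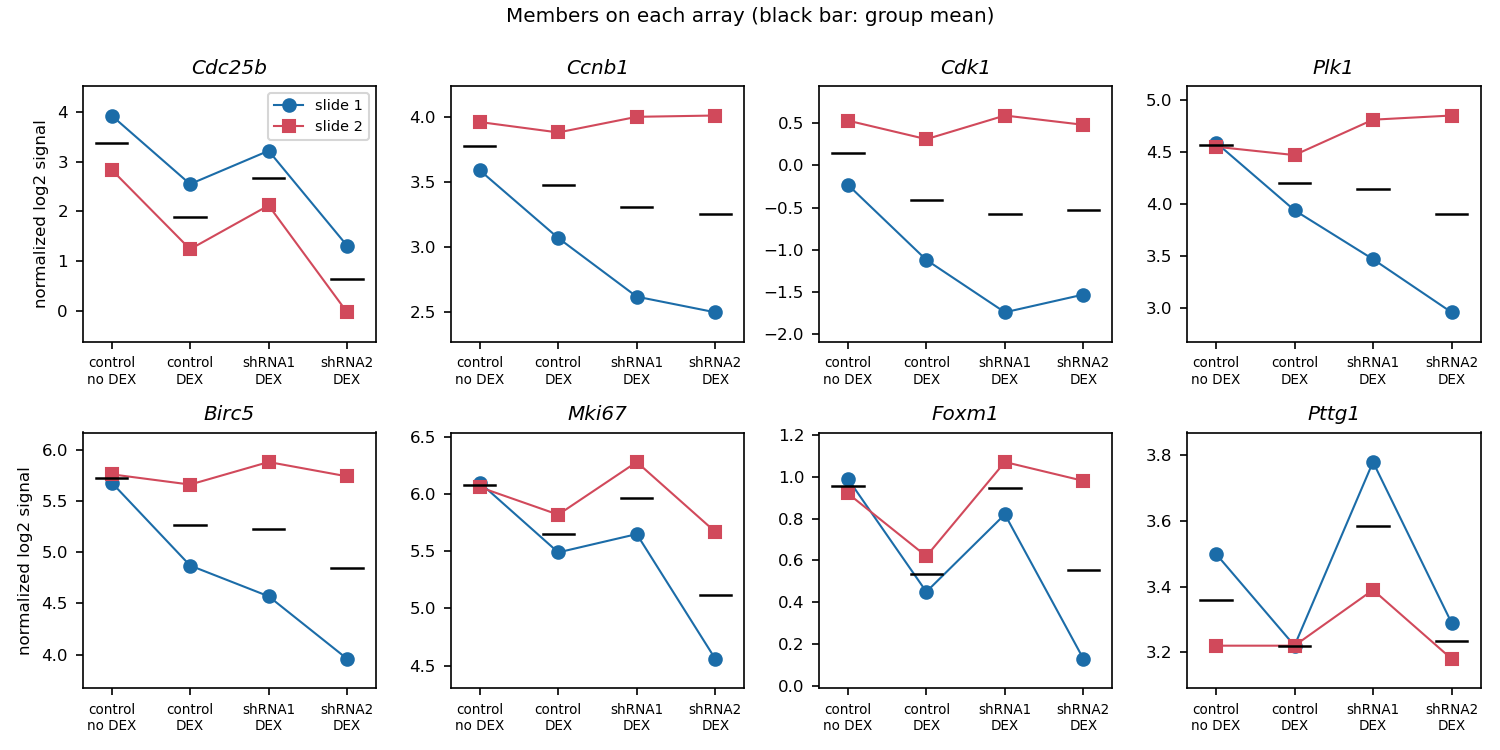
Level (log2 signal minus the 75th percentile of the array) of 8 members in the 4 groups, with 1 point per array, points of 1 slide joined by a line and black bars at the group means of 2 arrays; each panel has its own scale. For Cdc25b the 2 lines run in parallel, with shRNA1 above and shRNA2 below control with DEX. For Ccnb1, Plk1 and Birc5 slide 1 descends from group to group, and Cdk1 is lowest there with shRNA1. Each of these genes varies less on slide 2 than on slide 1.

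Mitotic kinases, their activators and the transcription factor Foxm1 form the next group. Plk1, the kinase that acts from mitotic entry to cytokinesis, lay at 4.59 and 4.55 without DEX, 3.94 and 4.47 with DEX, 3.47 and 4.81 with shRNA1 and 2.96 and 4.85 with shRNA2. Aurka, the kinase of spindle poles, lay at 3.05 and 3.30, 2.57 and 3.09, 2.19 and 3.48, and 1.84 and 3.39 in the same order of groups. Birc5, or survivin, a subunit of the chromosomal passenger complex, lay at 5.68 and 5.76, 4.87 and 5.66, 4.57 and 5.88, and 3.96 and 5.74. In all 3, by the probe used, the shRNA arrays were low on slide 1 and at or above the DEX control on slide 2, so that the shRNA groups overlapped the control. The other probes of Birc5 that passed the filter differed by 0.22 (0.06 and 0.39 on the slides) and by -0.03 with shRNA1. With DEX the 5 tested genes of the group (Plk1, Aurka, Birc5, Tpx2 and Foxm1) had mean differences between -0.46 and -0.34. Each was lower on both slides by the probe used. For Tpx2 the other probe that passed the filter differed by 0.17 with DEX (0.34 and 0 on the slides).

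Foxm1, the factor that activates transcription of many mitotic genes, departed from the step-down. It lay at 0.99 and 0.92 without DEX, 0.45 and 0.62 with DEX, 0.82 and 1.07 with shRNA1 and 0.13 and 0.98 with shRNA2. The control arrays with DEX lay below those without (differences of -0.54 and -0.30) and below those with shRNA1 (0.37 and 0.45, mean 0.41, SE 0.36). The mean shRNA1 difference did not pass limma's test (adjusted p = 0.923, or 0.405 with slide as a block; 0.3 to 1 over the 28 fits), and the lowest value over those fits was 0.02. With shRNA2 its differences were -0.32 and 0.35, of opposite sign on the slides.

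The spindle checkpoint and the anaphase promoting complex delay and then release sister chromatids. Bub1, a checkpoint kinase at the kinetochore, lay at 1.01 and 1.31 without DEX, 0.67 and 1.38 with DEX, 0.31 and 1.44 with shRNA1 and -0.28 and 1.42 with shRNA2. Bub1b, the checkpoint protein BubR1, lay at 1.19 and 1.51, 0.90 and 1.76, 0.40 and 1.73, and -0.41 and 1.62. Bub3, the partner that carries both of them to kinetochores, lay at 3.77 and 4.26, 3.63 and 4.17, 2.81 and 4.16, and 3.08 and 4.29. Bub3 was lowest on the slide 1 array of shRNA1, not of shRNA2, and on slide 2 none of the 3 separated the groups by more than 0.25.

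Mad2l1, the checkpoint protein that captures Cdc20, lay at 2.92 and 3.64 without DEX, 2.57 and 3.75 with DEX, 1.79 and 3.61 with shRNA1 and 1.61 and 3.69 with shRNA2. Ttk, the kinase Mps1 that starts checkpoint signalling, lay at -2.66 and -2.06, -2.85 and -1.92, -3.67 and -2.24, and -4.10 and -2.05. For both, each shRNA array was below the DEX control array of its slide, by 0.78 and 0.14 for Mad2l1 with shRNA1 and by 0.81 and 0.32 for Ttk. The shRNA1 mean of Ttk, -0.57, was -0.12 with normexp background. The 2 other probes of Mad2l1 were also lower under both hairpins on both slides, with mean differences of -0.42 and -0.61 with shRNA1 and -0.61 and -0.79 with shRNA2, beside -0.46 and -0.51 for the probe used. With DEX the 3 probes did not share a sign.

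Cdc20, the activator of the anaphase promoting complex, lay at 4.60 and 4.76, 4.33 and 4.73, 3.99 and 5.03, and 3.42 and 4.85. Ube2c, the ubiquitin-conjugating enzyme of that complex, lay at 4.57 and 4.48, 3.80 and 4.06, 3.77 and 4.49, and 2.84 and 4.36. Both DEX control arrays of Ube2c were below both arrays without DEX, with differences of -0.77 and -0.42. Pttg1, or securin, the inhibitor of separase, lay at 3.5 and 3.22 without DEX, 3.22 and 3.22 with DEX, 3.78 and 3.39 with shRNA1 and 3.29 and 3.18 with shRNA2. Both shRNA1 arrays of Pttg1 were above the DEX control (0.55 and 0.18, mean 0.36, SE 0.29) without passing limma's test (adjusted p = 0.923, or 0.347 with slide as a block; 0.339 to 1 over the 28 fits). Under scaling by the median of the array the value was -0.03.

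Centromere and kinetochore genes come next. Cenpa, the histone H3 variant of centromeres, lay at 3.21 and 3.22 without DEX, 2.82 and 3.14 with DEX, 2.38 and 3.16 with shRNA1 and 1.97 and 3.29 with shRNA2. Cenpf, a large kinetochore protein that is made in G2, lay at -5.41 and -4.86, -5.44 and -5.21, -5.49 and -4.89, and -6.47 and -5.19. Cenpf was not well above background on the slide 1 arrays of shRNA1 and shRNA2, so no difference between the hairpins is read from slide 1. On slide 2 shRNA1 was higher by 0.30, and the mean over both slides, 0.64, was 0.11 with normexp background and 0.07 in the authors' values. The motor Cenpe and the Ndc80 complex subunits Ndc80 and Nuf2 had mean differences from -0.37 to -0.05 with DEX and from -0.52 to -0.22 with shRNA2, and from -0.36 to 0.12 with shRNA1.

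Kinesins and spindle proteins build the spindle and move along it. Kif11, the motor that pushes the poles apart, lay at -0.13 and 0.67 without DEX, -0.30 and 0.45 with DEX, -0.61 and 0.55 with shRNA1 and -1.0 and 0.43 with shRNA2. Nusap1, which bundles microtubules near chromosomes, lay at 3.04 and 2.55, 2.24 and 2.27, 2.23 and 2.35, and 1.40 and 2.06. The arrays of Nusap1 did not overlap in the DEX comparison, in the shRNA2 comparison or between the hairpins, which are comparisons that share arrays. Of all genes, 16.5%, 8.19% and 12.3% were separated in the same direction in these comparisons taken singly. Control without DEX was highest, control with DEX and shRNA1 were close together and shRNA2 was lowest. Nusap1 had a mean difference of -0.54 (SE 0.35) with DEX and of -0.53 with shRNA2. It did not pass limma's test: over the 28 fits its adjusted p ranged from 0.372 to 1 for DEX and from 0.32 to 1 for shRNA1 against shRNA2. The remaining genes of the group, the kinesins Kif20a, Kif23, Kif2c and Kif4 and the spindle proteins Prc1 and Hmmr, had mean differences from -0.42 to -0.14 with DEX, -0.20 to 0.10 with shRNA1 and -0.51 to -0.24 with shRNA2.

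Condensin, topoisomerase and chromosome surface genes shape the mitotic chromosome. Top2a, the topoisomerase that untangles sister chromatids, lay at 2.78 and 3.04 without DEX, 2.41 and 3.05 with DEX, 1.81 and 3.05 with shRNA1 and 1.5 and 3.01 with shRNA2. Top2a shows the difference between slides most plainly: its 4 arrays spanned 1.28 on slide 1 and 0.05 on slide 2, the smallest span of the 40 tested members on that slide. Ncapg, a subunit of condensin I, lay at -2.63 and -1.95, -2.95 and -1.96, -3.54 and -2.16, and -4.21 and -2.46. Both shRNA2 values of Ncapg were below the DEX control of their slide, by 1.26 and 0.50, and both shRNA1 values by 0.59 and 0.20. The shRNA2 mean of -0.88 (SE 0.76) did not pass limma's test (adjusted p = 1, or 0.78 with slide as a block; 0.221 to 1 over the 28 fits). With normexp background it was -0.33, and the shRNA1 mean of -0.39 was then -0.07. With 1 array left out at a time the shRNA2 mean ran from -1.75, without the slide 2 array of shRNA2, to -0.01, without the slide 1 array of shRNA2.

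Mki67, the coat protein of mitotic chromosomes that serves as a proliferation marker, lay at 6.10 and 6.06 without DEX, 5.49 and 5.82 with DEX, 5.65 and 6.28 with shRNA1 and 4.56 and 5.67 with shRNA2. It was lower with DEX on both slides, and against the DEX control the shRNA1 arrays differed by 0.15 and 0.46 and the shRNA2 arrays by -0.93 and -0.16. The hairpins differed directly by 1.08 and 0.62, with a mean of 0.85 (SE 0.46; limma adjusted p = 1, or 0.422 with slide as a block; 0.258 to 1 over the 28 fits). A second probe of Mki67 gave the same signs, 0.40 with shRNA1 and -0.32 with shRNA2. Under scaling by the median of the array the shRNA1 value of the main probe was -0.09. Smc2 and Smc4, the condensin ATPases, and Ncapd2 had mean differences from -0.38 to -0.14 with DEX, -0.25 to 0.15 with shRNA1 and -0.43 to -0.36 with shRNA2.

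Cytokinesis genes complete the division. Anln, the scaffold of the contractile ring, lay at 1.81 and 2.45 without DEX, 1.26 and 2.30 with DEX, 1.24 and 2.30 with shRNA1 and 1.0 and 2.29 with shRNA2, so that on slide 2 the 3 groups with DEX were within 0.01 of each other. Ect2, the exchange factor for RhoA, had mean differences of -0.12 with DEX, -0.32 with shRNA1 and -0.58 with shRNA2, but its other probe that passed the filter gave 0.29 with shRNA1 (0.25 and 0.34 on the slides). Racgap1, a subunit of centralspindlin, had differences of -0.45, -0.04 and -0.14 in the same order of comparisons.

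The first comparison is DEX against no DEX under control virus. Its question is which transcripts differ with the glucocorticoid. In limma without a block 0 of 40 members passed at an adjusted p of 0.05, where 0% of all genes tested passed, and at an unadjusted p under 0.05 there were 0 members and 594 genes (3.11%). With slide as a block 0 members passed, against 0.23% of all genes (44), and 1 member, Cdc25b, had an unadjusted p under 0.05, against 9.56% of all genes. Every member had a negative mean difference, from -1.49 for Cdc25b to -0.02 for Bub1b, and 3 of the 40 lay above the median gene, whose own difference was -0.08. The members' median was -0.18 below the median gene, at -0.32 on slide 1 and -0.10 on slide 2. Both arrays with DEX were below both without in 11 of 40 members, against 16.5% of all genes, and above in 0, against 10.4%. The 11 were Cdc25b, Plk1, Birc5, Foxm1, Ube2c, Pttg1, Cenpa, Cenpe, Nusap1, Mki67 and Racgap1. For Pttg1 the difference on slide 2 was only -0.01. Its other probe that passed the filter overlapped, with differences of 0.03 and -0.14 on the slides. On both slides 28 members were below the median gene, where 30.3% of all genes were, and 0 were above it on both, where again 30.3% were; the slides disagreed in sign for the other 12, and for 39.4% of all genes.

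For shRNA1 against control virus, both with DEX, limma passed 0 of 40 members (0% of all genes; 400 genes, 2.09%, and 0 members at an unadjusted p under 0.05). With slide as a block it passed 0 members and 0% of all genes, and the unadjusted p was under 0.05 for 1 member, Cdc25b, and for 17.8% of all genes. The median gene differed by 0.18, so members are set against it. The members' median was -0.26 below it, at -0.60 on slide 1 and 0.08 on slide 2. Both shRNA1 arrays were above both controls in 4 members, Foxm1, Pttg1, Cenpe and Ncapd2, against 18% of all genes, and below in 0, against 7.56%. On both slides 3 members were above the median gene and 16 below, with 37.3% of all genes in each class, and the slides disagreed for 21 (25.4% of all genes).

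For shRNA2 against the same control arrays, limma passed 0 of 40 members (0% of all genes; 240 genes, 1.25%, and 0 members at an unadjusted p under 0.05). With slide as a block it passed 0 members and 0.00523% of all genes (1 gene), and the unadjusted p was under 0.05 for 2 members, Cdc25b and Ncapg, and for 5.7% of all genes. The members' median was -0.40 against the median gene, at -0.89 on slide 1 and 0.01 on slide 2, so the mean rested on slide 1. Nusap1 alone had both shRNA2 arrays below both controls, where 8.19% of all genes did, and 0 members lay above, where 7.26% did. On both slides 19 members were below the median gene and 0 above, with 25.9% of all genes in each class, and the slides disagreed for 21 (48.1% of all genes).

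For shRNA1 against shRNA2 limma passed 0 of 40 members (0% of all genes; 456 genes, 2.38%, and 1 member, Cdc25b, at an unadjusted p under 0.05). With slide as a block it passed 0 members and 0% of all genes, and the unadjusted p was under 0.05 for 2 members, Cdc25b and Mki67, and for 11% of all genes. The median gene differed by 0.13. Members lay at 0.19 above it, 0.36 on slide 1 and -0.01 on slide 2. On both slides 19 members were above the median gene and 3 below, with 32.6% of all genes in each class, and the slides disagreed for 18 (34.8% of all genes). Both shRNA1 arrays exceeded both shRNA2 arrays in 4 members, Cdc25b, Pttg1, Nusap1 and Ncapd2, against 12.3% of all genes. The reverse held in 0, against 4.57%.

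**Figure D4:**
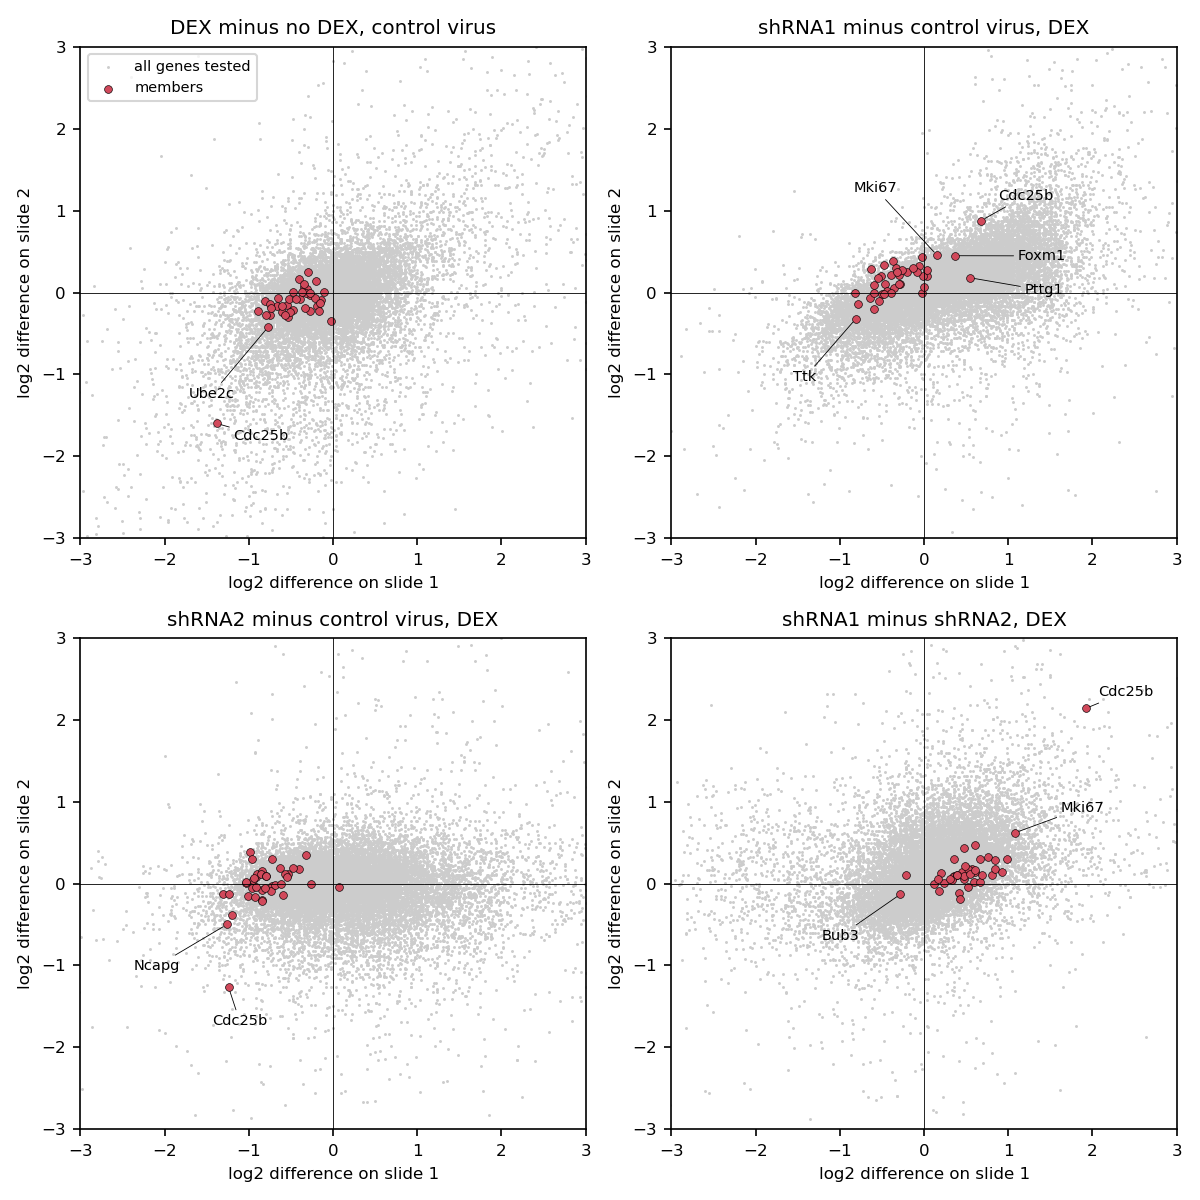
Log2 difference on slide 1 (x axis) against slide 2 (y axis) for the 4 comparisons, with all 19130 genes tested in grey and the 40 tested members in red; the axes stop at 3, leaving 79 to 280 genes outside, depending on the comparison. Members spread along the x axis and lie near 0 on the y axis under both hairpins, and Cdc25b stands away from the others in every panel.

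The slides can also be compared within a group, since each group had 1 array on each. Without DEX the median member was 0.28 higher on slide 2, and 29 of 40 were higher. With DEX it was 0.60 (36 of 40), with shRNA1 1.14 (37 of 40) and with shRNA2 1.45 (38 of 40). The median of all genes moved the other way, between -0.25 and -0.09, and 6.06% of all genes had a gap at or above the members' median in the shRNA2 group, 10.5% with shRNA1, 16.5% with DEX and 24.3% without. In 36 of 40 members the lowest of the 8 arrays was the slide 1 array of shRNA2, which was the lowest for 18.6% of all genes. By the probe used, the exceptions were Cdk1 and Bub3, lowest on the slide 1 array of shRNA1, and Cdc25b and Pttg1, lowest on the slide 2 array of shRNA2. The other probes of Cdk1 and Pttg1 that passed the filter were lowest on the slide 1 array of shRNA2, at -5.54 and -2.70.

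Without that array the members' median difference of shRNA2 from its control was 0.39 in place of -0.40, and without the slide 1 array of shRNA1 that of shRNA1 was 0.40 in place of -0.26. Without the slide 1 array of the DEX control the DEX difference was 0.13 in place of -0.18. These values, without a block, set arrays of different slides against each other; with the block the same omissions gave -0.03, -0.07 and -0.37.

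Mean levels of markers of other blood cells were highest on the slide 1 array of shRNA2. The 16 neutrophil and granulocyte precursor markers tested, all well above background on every array, had mean levels of -0.26 to 1.72 on the 4 control arrays, 1.62 and 1.60 with shRNA1, and 3.70 on slide 1 and 0.98 on slide 2 with shRNA2. Their median difference from the DEX control, against the median gene, was 1.36 with shRNA1 and 2.32 with shRNA2 (4.05 on slide 1 and 0.61 on slide 2). The 10 monocyte and macrophage markers had mean levels of -1.37 on that slide 1 array and -4.35 to -2.40 on the others, and the 12 megakaryocyte markers 2.65 there and -0.62 to 1.35 on the others. The mean of the 7 mast cell and basophil markers was also highest there, at 0.43 against -1.26 to 0.07, but these markers did not move together. With shRNA2, 3 of the 7 were above the median gene on both slides and 3 below. Il1rl1 lay at 2.86 on that array and at 4.21 on the slide 1 array of the DEX control. The means of the 6 hepatocyte markers, at -4.02 to -2.07 over all arrays, and of the erythroid markers, at 4.46, were within the range of the other arrays. The 2 shRNA arrays of slide 1 had the dimmest signal of the 8, with 75th percentiles of 476.2 and 521.6. The part of these cells and of signal brightness in the members' values was not tested.

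Other genes of the cell cycle were summarised as lists. Of 74 other mitosis genes tested, 0 passed limma's test in any comparison, with or without the block. Their medians against the median gene were -0.17 with DEX, -0.25 with shRNA1 and -0.36 with shRNA2, and by slide -0.33 and -0.06, -0.58 and 0.01, and -0.78 and 0.03. Both DEX arrays were below both arrays without DEX in 16 of these 74, where 16.5% of all genes were, and above in 0, where 10.4% were. In 9 both shRNA1 arrays were above both controls, where 18% of all genes were, and in 1 below, where 7.56% were. Among the 9 was the kinetochore scaffold Knl1, with differences of 0.83 and 0.29. The 44 S phase genes tested, among them the replication licensing and DNA synthesis factors, had medians of -0.24 with DEX, -0.41 with shRNA1 and -0.36 with shRNA2, and 0 passed. By slide these were -0.42 and -0.05, -0.70 and -0.02, and -0.74 and -0.01, with the lower values on slide 1 here too. Between the hairpins the S phase median was -0.05, at 0.01 on slide 1, where that of the members was 0.36. Ccne1, the cyclin of S phase entry, was lower with DEX on both slides (-1.14 and -0.39), and Ung, a uracil glycosylase, was higher with shRNA1 (0.55 and 0.46) and with shRNA2 (0.49 and 0.40), without overlap. Such separation was found in 8 of the 44 lower with DEX (16.5% of all genes) and in 0 higher (10.4%). With shRNA1 it was found in 1 higher (18%) and 0 lower (7.56%), and with shRNA2 in 1 higher (7.26%) and 1 lower (8.19%).

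**Figure D5:**
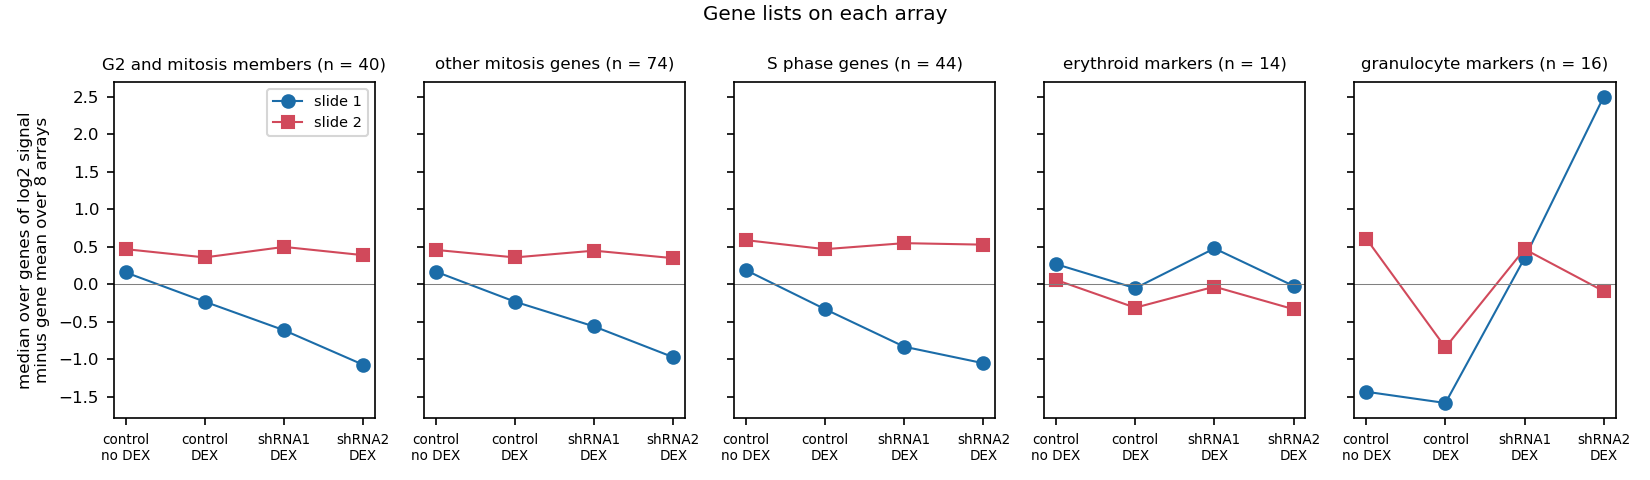
Median over the tested genes of each list of the level minus the gene's mean over 8 arrays (log2 units), with 1 point per array and the arrays of 1 slide joined by a line. On slide 1 the members run from 0.16 to -1.07 and on slide 2 they stay between 0.36 and 0.50; S phase genes run from 0.19 to -1.05 on slide 1, and granulocyte markers reach 2.5 on the slide 1 array of shRNA2.

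The 13 tested subunits and partners of the anaphase promoting complex, most of which are made throughout the cell cycle, did not show the step-down. Their medians were 0.08 with DEX, -0.08 with shRNA1 and -0.14 with shRNA2, and 0 passed. Without overlap, 3 of the 13 were lower with DEX (16.5% of all genes) and 2 higher (10.4%). With shRNA2, 1 was lower than the DEX control (8.19%) and 0 were higher (7.26%). Between the hairpins, 3 were higher with shRNA1 (12.3%) and 0 lower (4.57%). Ube2s, the enzyme that extends ubiquitin chains on that complex, was lower with DEX on both slides (-2.10 and -0.20) without overlap. The scaffold subunit Anapc4 was higher with DEX (0.31 and 0.26) and lower with shRNA2 (-0.23 and -0.27), again without overlap, and Anapc13 was higher with shRNA1 than with shRNA2 (0.54 and 0.22).

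Of 20 tested regulators of mitotic and S phase transcription (E2F, retinoblastoma, MuvB and NF-Y genes), 0 passed either, with medians of -0.21 with DEX, -0.25 with shRNA1 and -0.11 with shRNA2. Tfdp2, the dimerization partner of E2F factors, lay at 0.79 and 0.68 without DEX, -0.19 and -0.12 with DEX, 0.88 and 0.62 with shRNA1 and 0.04 and -0.35 with shRNA2. Its order over the groups on slide 1 was shRNA1, control without DEX, shRNA2 and control with DEX. On slide 2 the order was control without DEX, shRNA1, control with DEX and shRNA2. The shRNA1 arrays of Tfdp2 exceeded both the DEX control and shRNA2 without overlap, by a mean of 0.91 in each case (SE 0.29). Neither difference passed in limma without a block (adjusted p = 0.923 against the DEX control) or with slide as a block (adjusted p = 0.229 and 0.299). E2f2, an activating E2F with high levels in erythroid cells, was higher with shRNA1 (1.03 and 0.92) without overlap, the pocket protein gene Rbl2 was higher with DEX (0.78 and 0.26), and Nfya, a subunit of NF-Y, was higher with shRNA2 (0.87 and 0.21), as was the MuvB subunit Lin52 (0.30 and 0.15). Without overlap, 4 of the 20 were higher with shRNA1 (18% of all genes) and 0 lower (7.56%). With DEX 1 was higher (10.4%) and 3 lower (16.5%), and with shRNA2 2 were higher (7.26%) and 0 lower (8.19%). Between the hairpins, 2 were higher with shRNA1 (12.3%) and 0 lower (4.57%).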

How the data were processed

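RNA was measured on 8 one-colour Agilent arrays (44397 spots, 1377 of them controls). The scanner files hold linear processed signal intensity, deposited by the authors from Feature Extraction 10.1.1.1, per the file headers. Log2 values that the authors deposited beside them served as an alternative; their columns had medians of 6.65 to 6.66 and they followed the mean signal of the same array (Spearman at least 0.9985), and their exact normalization is not given in the sources used here.

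Levels were log2 intensity minus each array's 75th percentile, with outlier spots left out and spots of a probe averaged. A probe had to be flagged as well above background on the 2 arrays of some group; 441 of 39429 probes lacked a usable spot on some array. A gene took its brightest kept probe, giving 19130 genes. Of the probes, 26581 were named by accession through RefSeq and 12848 by the file. limma 3.58.1 (R 4.3.3) fitted all 4 groups together, with Benjamini-Hochberg adjustment over all genes; the fit was tested on simulated data. Precision is limited by 2 arrays a group.

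Probe coordinates in the files are mm9 and promoters GRCm38.p6, and none were converted. Same-numbered arrays share a slide, per the file headers, and deviated together (correlations of 0.43 to 0.86 between groups), so a fit with slide as a block is given beside each test. "Non-overlapping" means both arrays of 1 group exceed both of the other.

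The members, gene lists and tests were chosen with earlier results of these data known. Named with every array's value were the lead members and, per comparison, up to 4 members with the largest difference in each direction among those with 1 sign on both slides. Of genes in the other lists, the 2 largest per direction under that rule were taken, and only those without overlap are printed, a restriction chosen after values were seen. Alternatives were the block, median and quantile scaling, normexp background, no filter, a stricter filter, averaged probes, the authors' values and each array left out. A count of KEN letters in member proteins was planned and not run.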

Additional observations from a re-analysis of the deposited data

Results flagged for a closer look

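Cdc25b and Mki67 drew attention because the 2 hairpins lay on opposite sides of the DEX control on both slides. For Cdc25b the shRNA1 differences were 0.68 and 0.88 and the shRNA2 differences -1.24 and -1.27, and shRNA1 minus shRNA2 was 2.03. For Mki67 they were 0.15 and 0.46 against -0.93 and -0.16, and shRNA1 minus shRNA2 was 0.85. In limma this direct difference did not pass for either gene (adjusted p = 1 for both, or 0.131 and 0.422 with slide as a block). Such opposite sides were found in 2 of 40 members and in 7.46% of all genes tested (1428).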

How the results depend on the processing

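With 2 arrays a group, the number of arrays limits what can be shown. No member was called in the fit without a block under any alternative. With the replicate block, 44 genes were called for DEX and 1 for shRNA2, in place of 0; combined with median scaling the DEX count was 112, with quantile normalization 16 and with the authors' values 73, where Cdc25b passed for DEX (-1.44, limma adjusted p = 0.0474), so that 1 member was called in place of 0. Median scaling turned Pttg1 and Mki67 under shRNA1 to -0.03 and -0.09, with and without the block. Leaving out 1 array at a time moved the members' median from -0.53 to 0.13 for DEX, from -0.96 to 0.40 for shRNA1, from -1.20 to 0.39 for shRNA2 and from -0.71 to 0.95 for shRNA1 against shRNA2. With the block these ranges were -0.55 to 0.11, -0.50 to -0.05, -0.84 to -0.03 and -0.25 to 0.58, where -0.37 for DEX was reached without the slide 1 array of the DEX control, with 0 to 130 genes called for DEX and 0 to 9 for shRNA2. Named members changed sign when an array was left out as follows: Cdk1 for DEX (-1.27 to 0.15; with the block -1.14 to 0.03), under shRNA1 Ttk (-1.28 to 0.15), Mad2l1 (-1.37 to 0.45), Bub3 (-1.09 to 0.26), Ncapg (-1.08 to 0.30) and Mki67 (-0.01 to 0.63), under shRNA2 Ccna2 (-1.72 to 0.15) and Bub1b (-1.74 to 0.30), and between the hairpins Bub3 (-0.88 to 0.47; with the block -0.51 to 0.10). The causes were not tested.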
